A study of Mus musculus with 5 samples.

Results

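Axon guidance genes were examined in sorted dendritic cells that had been grown from Etv3-/- or Etv3+/+ mouse bone marrow. The set held every row of the deposited gene table whose symbol begins as a class 3 to 7 semaphorin, a plexin, an A or B type Eph receptor, an A or B type ephrin or a Robo, together with Nrp1, Nrp2 and Slit1 to Slit3. That rule took 63 of 27678 rows: 20 semaphorins, 9 plexins, 2 neuropilins, 14 Eph receptors, 8 ephrins, 7 Slit and Robo genes, and 3 antisense RNAs of the Plxna4 locus whose symbols share its beginning. The groups were 3 Etv3-/- libraries and 2 Etv3+/+ libraries, and the comparison addresses how loss of the ETS family transcription factor Etv3 alters these cells. Marrow of both genotypes was cultured for 6 days with GM-CSF (20 ng/ml) and IL-4 (5 ng/ml), and live CD11c+ CD11bint MHC-IIhi CD115- cells were sorted to a purity above 95%. The labels give the genotype without a strain, an age or the part of Etv3 that was disrupted, and name no separate animals or cultures behind the replicates, so a p-value here covers only library-to-library spread, which may be technical.

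Semaphorins are secreted or membrane-bound ligands that signal through plexins, alone or with neuropilins as co-receptors, and act on the cytoskeleton and on adhesion. Ephrins and Eph receptors are both anchored in membranes and signal in both directions at cell contacts, and Slits are secreted ligands of Robo receptors. In immune cells, semaphorins such as Sema4a, Sema4d, Sema6d and Sema7a are known from contacts between dendritic cells and T cells, and plexin-A1 from dendritic cell migration and T cell stimulation.

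Depth was 42983550 to 68253936 reads per library, recovered from the deposited values. The targeted gene Etv3 had 18691, 20416 and 22856 normalized counts in Etv3-/- libraries and 23050 and 25447 in Etv3+/+ libraries (limma adjusted p = 0.567). A total over the gene does not check the genotype, because the sources used here do not state which part was removed, so directions are as labelled. The dendritic cell marker genes Itgax, H2-Ab1, Cd74, Flt3, Zbtb46 and Ccr7 had reads in every library, with Zbtb46 at 10982, 11113 and 12295 normalized counts in Etv3-/- and 10038 and 9852 in Etv3+/+. H2-Ab1, which encodes a chain of the MHC-II used in the sort, had 606099, 683482 and 870214 in Etv3-/- and 300904 and 193338 in Etv3+/+. Csf1r, which encodes the CD115 used to exclude cells in the sort, had 3493, 2403 and 2889 normalized counts in Etv3-/- and 1018 and 1348 in Etv3+/+. The summed level of 12 macrophage and monocyte markers, all 12 with reads, was 52529 to 70991 in Etv3-/- and 31650 to 33625 in Etv3+/+, so the genotypes did not overlap. The B cell marker sum was 3328 to 5197 in Etv3-/- and 1651 to 2177 in Etv3+/+, also without overlap. Nor did the genotypes overlap for the dendritic cell marker sum (1630800 to 2258062 in Etv3-/- and 879584 to 1245637 in Etv3+/+) or for plasmacytoid dendritic cell markers (12479 to 15025 in Etv3-/- and 10964 to 11804 in Etv3+/+, with the defining marker Siglech at 0). Within the dendritic cell sum, H2-Ab1, Cd74 and Zbtb46 did not overlap between genotypes. Itgax, Flt3 and Ccr7 overlapped, with Ccr7 at 213571 to 290394 in Etv3-/- and 246321 to 282725 in Etv3+/+. Within the macrophage and monocyte sum, Lyz2 was the largest part, at 32616 to 46159 in Etv3-/- and 23333 to 24189 in Etv3+/+. Cd68, Mrc1, Ly6c2 and Fcgr1 overlapped between genotypes and the other markers of that sum did not. Ly6c2 was at 273, 229 and 526 in Etv3-/- and 540 and 463 in Etv3+/+. Stromal markers were lower, at 0 to 44.7 in Etv3-/- and 51.3 to 87.3 in Etv3+/+, with Col1a2, Col3a1 and Dcn at 0. The neutrophil, T and NK cell, mast cell and basophil, endothelial, and neuron and glia sums overlapped. The sums without overlap moved with genotype as Plxna1 and other genes below did, and their part in those results was not tested. Values are from bulk RNA, in which more cells of a type and more RNA per cell cannot be told apart.

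Of the 63 genes, 13 were at 0 reads in all 5 libraries and are counted as not expressed. They were Sema3g, Sema5a, Plxnb1, Efna1, Efna3, Epha3, Epha4, Epha5, Epha8, Ephb2, Ephb4, Slit3 and the antisense RNA Plxna4os2. A count of 0 allows up to 3 reads over a group, which is 1.04 normalized counts for Etv3-/- and 1.34 for Etv3+/+. A further 21 genes had reads but fewer than 10 normalized counts in 4 or more libraries, and 10 of these had reads in a single library. Single-library signals reached 21.4 normalized counts for Robo2 in Etv3+/+ replicate 1 and 16.1 for Slit1 in Etv3-/- replicate 2. Sema3a, a secreted ligand of neuropilin-1, was at 59.2, 0 and 2.63 normalized counts in Etv3-/- and 0 in both Etv3+/+ libraries. Sema6a was at 0, 0 and 4.38 in Etv3-/- and at 0.932 and 55.6 in Etv3+/+. These low genes were not tested, and their pattern was that of scattered libraries in both genotypes.

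The other 29 genes had 10 or more normalized counts in at least 2 libraries and were tested with all 13813 genes that met this filter. The test was limma on log2(normalized count + 1), two-sided, with Benjamini-Hochberg adjustment over all genes. Of the 29, 1 gene rose and 1 fell in Etv3-/- cells, the plexin genes Plxna1 and Plxnc1. Among all genes tested, 1.19% passed in either direction, 0.876% higher and 0.319% lower in Etv3-/-. At an unadjusted p under 0.05 limma had 6 of the 29, against 18.0% of all genes. On recovered reads edgeR called 1 of the 29, against 1.14% of all genes, and DESeq2 called 5, against 8.46%. Genotypes did not overlap for 9 of the 29, with 5 higher and 4 lower in Etv3-/-. This is close to the background, in which 36.0% of all tested genes did not overlap, 16.7% higher and 19.3% lower in Etv3-/-. The median log2 fold change was 0.08 over the 29 genes and -0.06 over all tested genes. For 3 of the 29 the filter was passed through the libraries of a single genotype, Epha10 and Plxna3 through Etv3-/- and Ephb6 through Etv3+/+, so these counts describe the set and support nothing further.

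**Figure D1:**
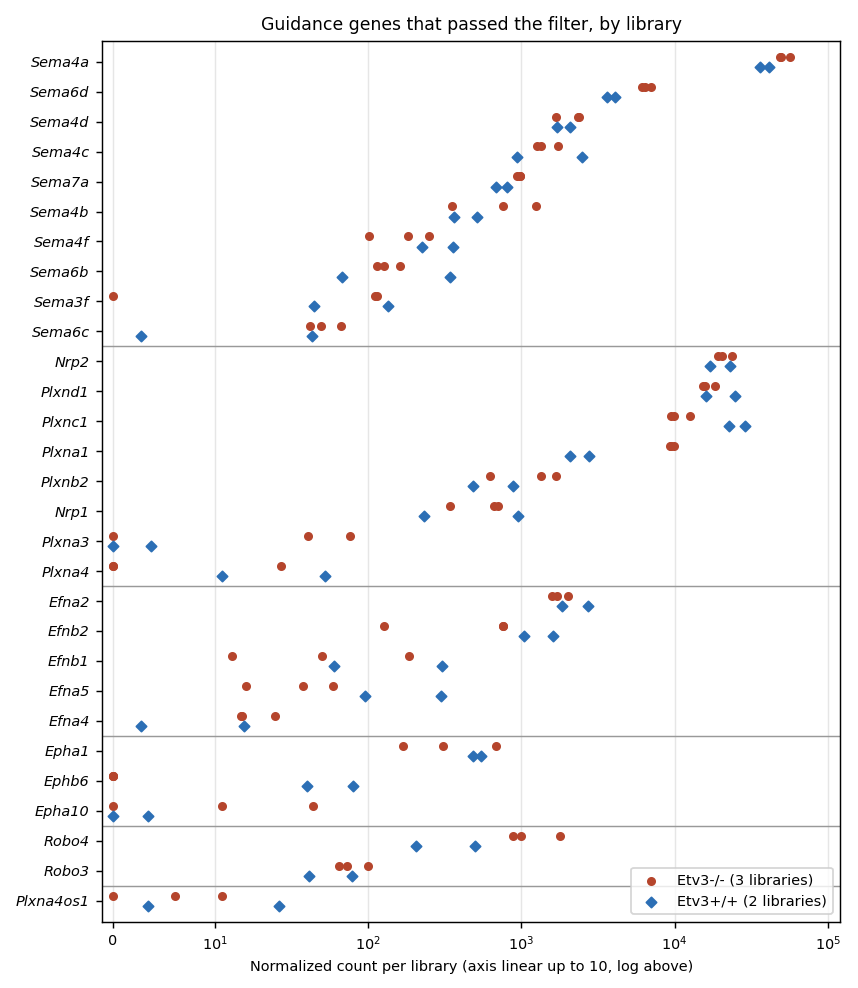
Normalized count in each library (horizontal axis, linear up to 10 and logarithmic above) for the 29 genes that passed the filter, grouped by family, with Etv3-/- libraries as circles above Etv3+/+ libraries as diamonds. Plxna1 libraries separate by genotype with 9272 to 9978 in Etv3-/- and 2083 to 2759 in Etv3+/+, while Nrp2, Plxnd1 and most semaphorins overlap.

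Plexin-A1 transcript was the clearest change. Plxna1 (chromosome 6, 89316314 to 89362620, minus strand, GRCm38) encodes a receptor for class 6 semaphorins and, with neuropilin-1, for class 3 semaphorins. Its normalized counts were 9497, 9978 and 9272 in Etv3-/- and 2083 and 2759 in Etv3+/+. All 3 Etv3-/- libraries were above both Etv3+/+ libraries, and the gap was far wider than the spread within either genotype. The means were 9582 ± 360 (SD, n = 3) in Etv3-/- and 2421 ± 478 (SD, n = 2) in Etv3+/+, a 3.96-fold difference. On the log2 scale the difference was 2.00 (95% interval 1.51 to 2.48, limma adjusted p = 0.0112), and the gene ranked 18 of 13813 by p-value. It kept its call without Etv3+/+ replicate 1 or 2 (limma adjusted p = 0.0408 and 0.021) and lost it without Etv3-/- replicate 1, 2 or 3 (adjusted p = 0.0928, 0.0772 and 0.0711), with a log2 fold change of 1.80 to 2.20 over those 5 fits. With edgeR on recovered reads it passed on all libraries (edgeR adjusted p = 0.0192) and did not pass in any of the 5 edgeR fits that left out a library (adjusted p = 0.0595 to 0.133). The annotated gene Gm26811 lies opposite Plxna1, and reads of the pair cannot be told apart if strand was not used in counting.

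Plexin-C1 transcript moved the other way. Plxnc1 (chromosome 10, 94790866 to 94944835, minus strand, GRCm38) encodes the receptor for Sema7a. It had 9503, 12564 and 9935 normalized counts in Etv3-/- and 22515 and 28868 in Etv3+/+. Every Etv3-/- library was below both Etv3+/+ libraries. The means were 10667 ± 1657 (SD, n = 3) in Etv3-/- and 25691 ± 4492 (SD, n = 2) in Etv3+/+, 2.41-fold lower in Etv3-/-. On the log2 scale the difference was -1.27 (95% interval -1.78 to -0.75, limma adjusted p = 0.0455), close to the threshold of 0.05. The call was lost without each of the 5 libraries in turn (limma adjusted p = 0.0824 to 0.187), with TMM scaling (0.0518) and with edgeR on recovered reads (edgeR adjusted p = 0.0614), with log2 fold changes between -1.45 and -1.09 in these fits.

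The start region of Plxnc1 is shown because Etv3 is an ETS factor and proteins of that family bind DNA around a GGAA core. The window runs from 250 bases before to 50 bases after a RefSeq start (chr10:94944796-94945095, GRCm38.p6, minus strand), and capitals mark GGAA on either strand.
Plxnc1: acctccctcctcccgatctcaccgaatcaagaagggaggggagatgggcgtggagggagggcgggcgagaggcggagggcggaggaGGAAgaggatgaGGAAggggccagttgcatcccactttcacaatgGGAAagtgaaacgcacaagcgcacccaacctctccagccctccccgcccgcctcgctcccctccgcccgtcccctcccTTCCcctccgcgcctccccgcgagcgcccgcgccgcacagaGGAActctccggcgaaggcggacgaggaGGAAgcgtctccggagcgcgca
The window held 6 such matches and no CCGGAA, a longer ETS-type word searched on both strands that contains GGAA. Of 32851 RefSeq windows of this length, 96.0% held GGAA and 14.9% held CCGGAA. Among the 36 windows that matched 25 of the 29 tested guidance genes, 36 held GGAA and 3 held CCGGAA, at Ephb6, Sema4a and Sema4b. Plxna1 was among the tested genes without a window, so its start region was not searched. A match describes letters and is not a binding site.

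Among plexins and neuropilins the order of levels per length differed between genotypes. Levels between genes were compared as normalized counts per kilobase of exon, with exon lengths from GENCODE M21. In Etv3-/- cells the order was Plxnd1 (2254 ± 224), Nrp2 (1775 ± 190), Plxnc1 (1278 ± 198) and Plxna1 (1058 ± 39.8; SD, n = 3), and each neighbouring pair was separate over the 3 libraries. In Etv3+/+ cells it was Plxnc1 (3077 ± 538), Plxnd1 (2786 ± 844), Nrp2 (1688 ± 345) and, well below, Plxna1 (267 ± 52.8; SD, n = 2), and the libraries of Plxnc1 and Plxnd1 overlapped. Plxna1 made up 21.3, 23.0 and 22.5% of the summed per-kilobase plexin level in Etv3-/- libraries and 3.58 and 5.07% in Etv3+/+ libraries. Plxnc1 made up 23.2, 31.4 and 26.1% in Etv3-/- and 41.9 and 57.5% in Etv3+/+. The ratio of Plxna1 to Plxnc1 within a library, which does not depend on scaling between libraries, was 0.922, 0.732 and 0.861 in Etv3-/- and 0.0853 and 0.0881 in Etv3+/+. It was thus 9.67-fold higher in Etv3-/- by group means, a description of genes chosen after their values were seen. The summed plexin level was 4560 to 4916 in Etv3-/- and 6015 to 6430 in Etv3+/+.

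**Figure D2:**
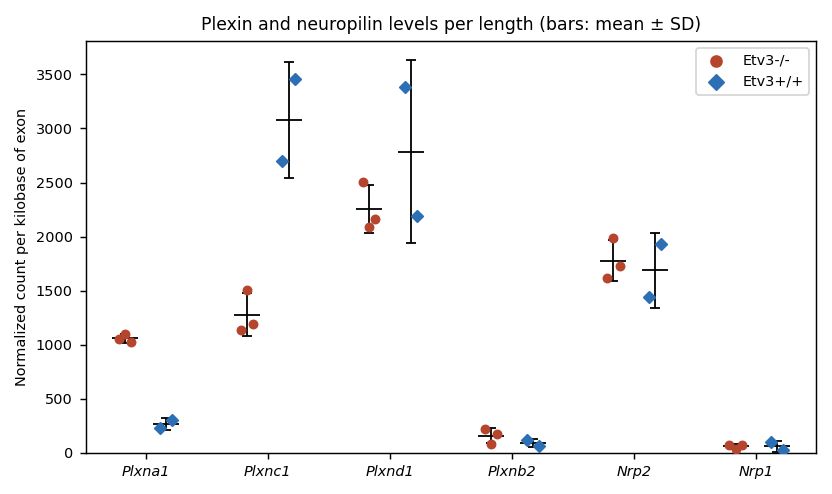
Normalized counts per kilobase of exon in each library for 4 plexin and 2 neuropilin genes, Etv3-/- (circles, n = 3) left of Etv3+/+ (diamonds, n = 2), with bars for mean ± SD. Plxna1 averaged 1058 in Etv3-/- and 267 in Etv3+/+, Plxnc1 averaged 1278 in Etv3-/- and 3077 in Etv3+/+, and the other 4 genes overlap between genotypes.

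The remaining receptors of this class did not pass. Plxnd1, the receptor for Sema3e and also a receptor for Sema4a, had 18318, 15266 and 15790 normalized counts in Etv3-/- and 24701 and 15987 in Etv3+/+. Nrp2, a co-receptor for class 3 semaphorins and VEGF-C, had 19138, 23514 and 20418 in Etv3-/- and 17103 and 22877 in Etv3+/+. Both overlapped between genotypes, and the 95% interval of the log2 fold change was -0.84 to 0.28 for Plxnd1 and -0.43 to 0.59 for Nrp2. Nrp1, the co-receptor for Sema3a, was at 342 to 705 in Etv3-/- and 232 to 950 in Etv3+/+. Plxnb2, a receptor for class 4 semaphorins, was at 629 to 1696 in Etv3-/- and 483 to 889 in Etv3+/+ (limma adjusted p = 0.438). Plxna3 was at 0, 40.9 and 76.3 in Etv3-/- and 3.73 and 0 in Etv3+/+, and Plxna4 at 0, 27.2 and 0 in Etv3-/- and 52.2 and 11.1 in Etv3+/+. Plxna4os1, an antisense RNA of the Plxna4 locus, was at 0, 11.1 and 6.14 in Etv3-/- and 26.1 and 3.42 in Etv3+/+, and its reads cannot be told from those of Plxna4 if strand was not used.

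Among semaphorins 0 of 10 tested genes passed by limma or edgeR. By limma 1 had an unadjusted p under 0.05, against 18.0% of all genes, and DESeq2 on recovered reads called 1, against 8.46%. In each case it was Sema6d. Sema6d, a transmembrane ligand of plexin-A1, had 6441, 6972 and 6117 normalized counts in Etv3-/- and 4109 and 3608 in Etv3+/+. All Etv3-/- libraries were above both Etv3+/+ libraries, with means of 6510 ± 432 (SD, n = 3) in Etv3-/- and 3858 ± 355 (SD, n = 2) in Etv3+/+. The ratio of means was 1.69 and the log2 fold change 0.76 (95% interval 0.30 to 1.21, limma adjusted p = 0.118). With a correction for GC content and length, Sema6d passed with a log2 fold change of 0.93 (limma adjusted p = 0.0304).

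Sema4a was the most abundant guidance transcript in both genotypes. It encodes a class 4 semaphorin of dendritic cells that costimulates T cells in mice. It had 49627, 48676 and 56984 normalized counts in Etv3-/- and 41495 and 36071 in Etv3+/+. The groups did not overlap, the ratio of means was 1.33, and the gene did not pass (log2 fold change 0.42, 95% interval -0.08 to 0.91, limma adjusted p = 0.355). Sema4a lies 0.896 Mb from Etv3 on chromosome 3, where Efna1, Efna3, Efna4 and Sema6c also lie, at 1.73, 1.77, 1.79 and 7.62 Mb. Per kilobase Sema4a held 83.5 to 85.6% of the summed semaphorin level in Etv3-/- and 82.0 to 85.3% in Etv3+/+, so its dominance did not differ beyond the spread between libraries. Sema6d held 4.70 to 6.22% in Etv3-/- and 4.16 to 4.37% in Etv3+/+.

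Sema4d, the CD100 ligand of plexin-B1, plexin-B2 and CD72, had 2336, 1679 and 2376 normalized counts in Etv3-/- and 2079 and 1707 in Etv3+/+. These overlap, and the 95% interval of the log2 fold change was -0.45 to 0.77. Sema7a, the lipid-anchored ligand of plexin-C1 and of an integrin, had 976, 937 and 984 in Etv3-/- and 808 and 683 in Etv3+/+. The genotypes did not overlap for Sema7a, with a log2 fold change of 0.38 (95% interval -0.27 to 1.03, limma adjusted p = 0.515). Sema4c was at 1273 to 1740 in Etv3-/- and 943 to 2477 in Etv3+/+, Sema4b at 350 to 1243 in Etv3-/- and 362 to 512 in Etv3+/+, and Sema4f at 101 to 250 in Etv3-/- and 224 to 360 in Etv3+/+. Below them were Sema6b, at 114 to 161 in Etv3-/- and 67.6 to 341 in Etv3+/+, Sema3f, at 0 to 114 in Etv3-/- and 44.5 to 134 in Etv3+/+, and Sema6c, at 42.1 to 66.9 in Etv3-/- and 2.80 to 42.8 in Etv3+/+. For these 6 genes the genotypes overlapped. The log2 fold change was 0.69 for Sema4b (95% interval -0.58 to 1.95) and -0.77 for Sema4f (95% interval -2.10 to 0.56), close in size to that of Sema6d but with intervals that include 0.

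**Figure D3:**
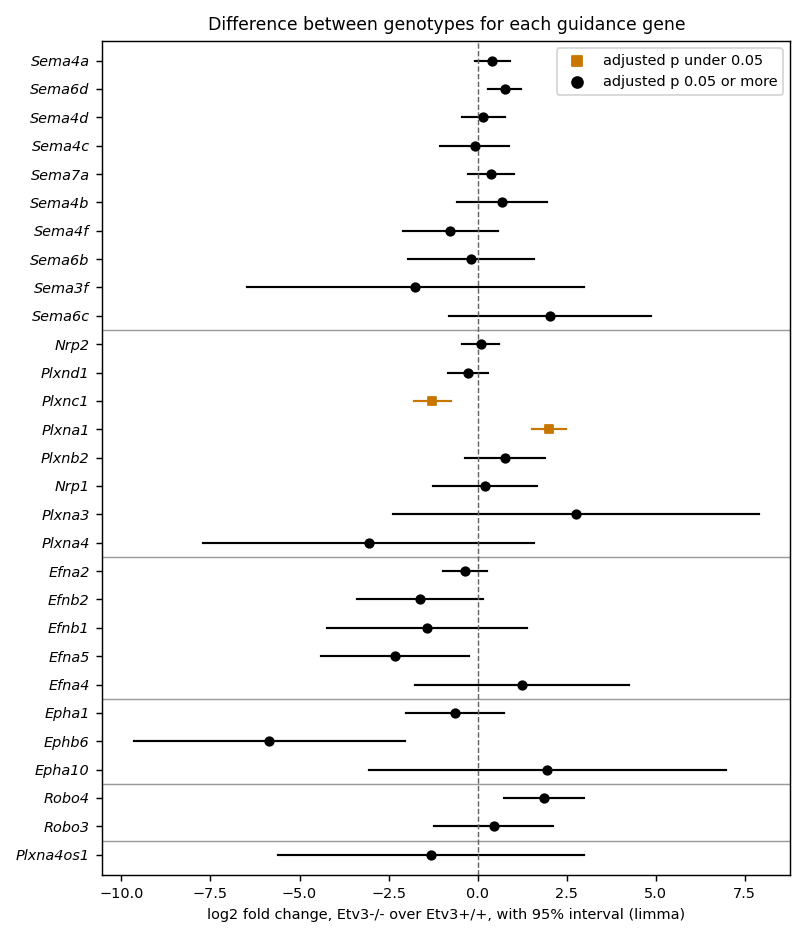
log2 fold change of Etv3-/- over Etv3+/+ with its 95% interval (horizontal axis, limma) for the 29 tested genes, grouped by family, with squares for genes that passed the adjusted threshold and circles for the others. Plxna1 at 2.00 and Plxnc1 at -1.27 are the squares, and genes near the filter, such as Plxna3 and Plxna4, have intervals several log2 units wide.

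Plexin-A1 is known in mouse dendritic cells and osteoclasts to associate with the receptor TREM2 and its signalling adaptor DAP12, encoded by Tyrobp. Trem2 had 4108, 2753 and 2824 normalized counts in Etv3-/- and 1522 and 1207 in Etv3+/+ (log2 fold change 1.23, limma adjusted p = 0.08). Tyrobp had 27457, 21017 and 28358 in Etv3-/- and 17940 and 15827 in Etv3+/+ (log2 fold change 0.59, limma adjusted p = 0.221). The genotypes did not overlap for either gene, as for 36.0% of all tested genes. They are a pair from a list of 12 tested semaphorin co-receptors and other receptors that held 6 positive and 6 negative fold changes. Trem2 is also a gene of macrophages, whose marker sum moved the same way, and both were singled out after their values were seen. With the replicate number as a block Trem2 passed, at a log2 fold change of 1.31 (limma adjusted p = 0.0456), though the numbers were not found to pair libraries.

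**Figure D4:**
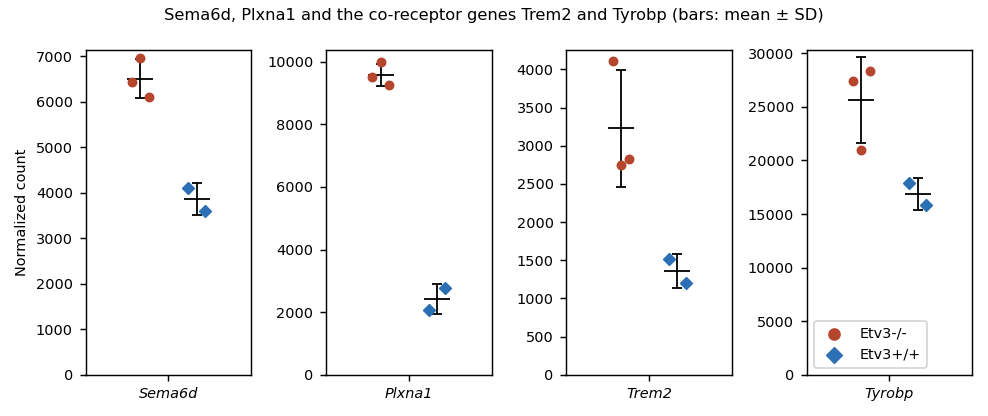
Normalized counts in each library for Sema6d, Plxna1, Trem2 and Tyrobp, Etv3-/- (circles, n = 3) left of Etv3+/+ (diamonds, n = 2), each panel with its own axis from 0 and bars for mean ± SD. The genotypes do not overlap in any of the 4 panels, and Plxna1 passed the adjusted threshold while the other 3 did not. Trem2 and Tyrobp were singled out after their values were seen, and 36.0% of all tested genes did not overlap.

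The ephrins gave 0 calls among 5 tested by limma, edgeR and DESeq2. By limma 1 gene, Efna5, had an unadjusted p under 0.05, against 18.0% of all genes. Efna2, a lipid-anchored ligand of EphA receptors, was the most abundant, with 2005, 1578 and 1717 normalized counts in Etv3-/- and 2734 and 1838 in Etv3+/+. These overlap, with a log2 fold change of -0.35 (95% interval -0.97 to 0.27). Efnb2, a transmembrane ligand of EphB receptors and EphA4, had 127, 758 and 760 in Etv3-/- and 1602 and 1037 in Etv3+/+. Etv3-/- replicate 1 was far below the other 2, and all 3 were below the Etv3+/+ libraries (log2 fold change -1.62, 95% interval -3.40 to 0.16, limma adjusted p = 0.322). Without that library the log2 fold change of Efnb2 was -0.76. Efna5 had 59.2, 16.1 and 37.7 in Etv3-/- and 297 and 95.0 in Etv3+/+, also without overlap (log2 fold change -2.31, 95% interval -4.39 to -0.23, limma adjusted p = 0.238). Without Etv3+/+ replicate 1 the log2 fold change of Efna5 was -1.49, and without Etv3+/+ replicate 2 it was -3.13. Efnb1 was at 12.9, 186 and 49.98 in Etv3-/- and 303 and 59.9 in Etv3+/+, and Efna4 at 14.9 to 24.6 in Etv3-/- and 2.80 to 15.4 in Etv3+/+.

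Their receptors were sparse. Of 14 Eph receptor genes, 6 were at 0 in all libraries and 3 were tested, with 0 calls by limma and edgeR. Of the 3, 1 had an unadjusted p under 0.05 by limma, against 18.0% of all genes. DESeq2 called 1, against 8.46%, and both were Ephb6. Epha1 was the most abundant, with 169, 685 and 310 normalized counts in Etv3-/- and 547 and 485 in Etv3+/+, which overlap. Zyx, which lies opposite Epha1 and overlaps it, was at 28634 to 53347 in Etv3-/- and 61989 to 77945 in Etv3+/+, so the value of Epha1 is uncertain if strand was not used. Epha10 was at 0, 11.1 and 43.8 in Etv3-/- and 0 and 3.42 in Etv3+/+.

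Ephb6, an Eph receptor without kinase activity, was read in Etv3+/+ cells and not in Etv3-/- cells. The 3 Etv3-/- libraries had 0 reads, against 80.2 and 40.2 normalized counts in Etv3+/+. The mean of the Etv3+/+ libraries was 57.7-fold above the limit of 3 reads over the Etv3-/- group. This bound covers counting error alone and leaves out the spread between libraries. The fitted test did not pass (limma adjusted p = 0.135), while DESeq2 on recovered reads called it (DESeq2 adjusted p = 0.0118). Ephb6 entered the test through the Etv3+/+ libraries alone, where it is high, so the bound, the interval and both p-values are no support for the difference. T cells express Ephb6, and the sum of 5 T and NK cell markers was 1812 to 3797 in Etv3-/- and 3602 to 3881 in Etv3+/+, with Ncr1 at 0 in every library. These sums overlap, but Cd3g was at 143, 406 and 234 in Etv3-/- and 586 and 602 in Etv3+/+, and Nkg7 at 360, 1094 and 1001 in Etv3-/- and 1756 and 1494 in Etv3+/+, both lower in every Etv3-/- library as Ephb6 was. Cd3e overlapped, at 210, 287 and 285 in Etv3-/- and 340 and 187 in Etv3+/+. Cd8a went the other way for 2 of 3 libraries, at 1099, 2010 and 1949 in Etv3-/- and 1199 and 1320 in Etv3+/+. The part of T and NK cells in the result was not tested. The RefSeq start window of Ephb6 is shown because it is among the 3 that held CCGGAA, which starts at base 168 of the window (chr6:41605261-41605560, GRCm38.p6, plus strand), and capitals again mark GGAA.
Ephb6: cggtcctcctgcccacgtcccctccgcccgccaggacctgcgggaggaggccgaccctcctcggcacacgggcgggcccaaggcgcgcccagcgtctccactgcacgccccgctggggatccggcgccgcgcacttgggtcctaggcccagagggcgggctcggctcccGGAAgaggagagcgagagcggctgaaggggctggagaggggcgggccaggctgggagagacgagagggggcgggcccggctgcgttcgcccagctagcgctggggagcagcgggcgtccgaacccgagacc

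In the Slit and Robo family 0 of 2 tested genes passed by limma or edgeR. By limma 1 had an unadjusted p under 0.05, against 18.0% of all genes, and DESeq2 called 1, against 8.46%. In each case it was Robo4. Robo4, a receptor best known from endothelial cells, where it stabilises vessels, had 883, 998 and 1799 normalized counts in Etv3-/- and 496 and 205 in Etv3+/+. The genotypes did not overlap, and the means were 1227 ± 499 (SD, n = 3) in Etv3-/- and 351 ± 205 (SD, n = 2) in Etv3+/+, a ratio of 3.50. On the log2 scale the difference was 1.87 (95% interval 0.73 to 3.00, limma adjusted p = 0.121), and it was 2.50 without Etv3+/+ replicate 1 and 1.23 without Etv3+/+ replicate 2. The endothelial markers Cdh5, Tek and Emcn were at 0 in every library. The sum of the 6 endothelial markers was 305 to 1050 in Etv3-/- and 254 to 591 in Etv3+/+, which overlap. Pecam1 was the largest part, at 767, 292 and 381 in Etv3-/- and 564 and 254 in Etv3+/+. Kdr was at 213, 0 and 43.8 in Etv3-/- and 0 in both Etv3+/+ libraries. Egfl7 was at 69.9, 12.4 and 14.03 in Etv3-/- and 27.03 and 0 in Etv3+/+. Each of these markers overlapped between genotypes, and the part of endothelial cells in the Robo4 result was not tested. The neighbouring gene Robo3 was at 73.1, 100.3 and 64.9 in Etv3-/- and 78.3 and 41.1 in Etv3+/+.

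Partners and effectors of these receptors were read from lists of known guidance signalling genes. Across 5 lists 77 of 92 genes were tested, 1 rose and 0 fell, or 1.30%, near the 1.19% over all genes. Genotypes did not overlap for 18 higher and 20 lower, which is 49.4% of the partner genes and 36.0% of all genes. The gene that rose was Itsn1, which encodes intersectin-1, an exchange factor for Cdc42 known to act with EphB2 in neurons. It had 1690, 2498 and 1539 normalized counts in Etv3-/- and 574 and 549 in Etv3+/+ (ratio 3.40, log2 fold change 1.73, limma adjusted p = 0.0456). That call was lost without each library in turn (limma adjusted p = 0.112 to 0.157). Itsn1 is from the list of Eph and ephrin effectors, of which 21 were tested. By limma 5 of them had an unadjusted p under 0.05, against 18.0% of all genes. DESeq2 called 1 higher (Itsn1) and 2 lower (Rasa1 and Src), against 8.46% of all genes in either direction. Fold changes of the 21 were positive for 11 and negative for 10, and 52.4% did not overlap, against 36.0% of all genes. Among the 12 semaphorin co-receptors and other receptors 0 passed by limma and edgeR, with 4 at an unadjusted p under 0.05 by limma (Trem2, Cd72, Met and Tyrobp), against 18.0% of all genes, and 4 called by DESeq2, against 8.46%. The most abundant were Itgb1, the integrin chain of the Sema7a receptor, at 38805 to 50678 in Etv3-/- and 44696 to 65617 in Etv3+/+, and Tyrobp. Among 28 plexin effectors 0 passed by limma and edgeR, 9 had an unadjusted p under 0.05 by limma, against 18.0% of all genes, and DESeq2 called 4, against 8.46%. Fold changes of the 28 were positive for 13 and negative for 15. The small GTPase genes Rap1b and Rac1 were highest there, Rap1b at 25967 to 62336 in Etv3-/- and 47546 to 93434 in Etv3+/+, and Rac1 at 24053 to 31646 in Etv3-/- and 28637 to 34705 in Etv3+/+. For 8 Slit and Robo effectors 0 passed by any of the 3 tools. By limma 1, Enah, had an unadjusted p under 0.05, against 18.0% of all genes. Enah was at 131, 398 and 185 in Etv3-/- and 582 and 598 in Etv3+/+. Genotypes did not overlap for 1 higher and 4 lower, which is 62.5%, against 36.0% of all genes. Enah and Ndfip1 were among the lower. Gpc1, a glypican that binds Slits, was at 46407 to 51661 in Etv3-/- and 38696 to 48485 in Etv3+/+. Ndfip1, an adaptor of ubiquitin ligases, was at 9484 to 18221 in Etv3-/- and 19512 to 27771 in Etv3+/+. For 8 tested genes of the netrin, repulsive guidance molecule and FLRT system 0 passed by any of the 3 tools. By limma 2, Flrt1 and Rgmb, had an unadjusted p under 0.05, against 18.0% of all genes. Flrt1 was at 122, 42.1 and 76.3 in Etv3-/- and 12.1 and 0 in Etv3+/+. Flrt3, an adhesion and guidance ligand, was at 15400 to 16927 in Etv3-/- and 11804 to 13964 in Etv3+/+, and Rgmb, a co-receptor for bone morphogenetic proteins, at 1493 to 1915 in Etv3-/- and 2401 to 3147 in Etv3+/+. The genotypes did not overlap for Flrt1, Flrt3 and Rgmb, and for 50% of the 8 genes, against 36.0% of all genes.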

How the data were processed

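RNA-seq was measured in 3 Etv3-/- and 2 Etv3+/+ libraries, grouped by the labelled genotype. The values deposited by the authors are normalized counts, a signal whose steps are whole reads divided by a library factor. The submitters' processing notes name, without roles, DESeq2 1.26.0, Subread 1.6.3, featureCounts, STAR 2.7.3a, Trimmomatic 0.36 and mm10. The sources used here give no annotation, strand setting or filter. Division by a library's lowest step gave values within 0.1 of a whole read for 100% of values, so reads were recovered. They carry no molecular identifiers, so floors of 3 reads cover counting error alone.

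limma 3.58.1 (lmFit, eBayes with trend) in R 4.3.3 was fitted to log2(normalized count + 1) of 13813 genes with 10 or more in at least 2 libraries, with genotype as its term. The deposited unit ruled the test, and edgeR 4.0.16 and DESeq2 1.42.0 on recovered reads called 158 and 1169 genes, against 165. An exact permutation test of 1 gene has only 10 splits here, and 0.1 is the smallest p it can reach. For low genes the fold change on the log2 scale can differ from the ratio of means in either direction. It was 3.35-fold against 1.20-fold by means for Sema3f, and 6.80-fold against 20.95-fold for Plxna3. Positions and lengths came from GENCODE M21 (GRCm38, the assembly of mm10), which matched 63 of 63 symbols, and start windows from RefSeq GRCm38.p6. The fits were tried on simulated counts in which all genes had the same dispersion and no library trended with GC content. These data differ from that setting, so no conclusion is drawn from the simulation. Genes described in full passed the threshold, or had genotypes without overlap, a group mean of 50 or more and an absolute log2 fold change of 1 or more, or were among the 3 highest of a family. From each partner list, genes past the threshold or else the 2 highest were described. Other genes given in full, such as Trem2, were chosen after their values were seen. Members and lists were chosen with earlier results of these data known. Alternatives covered pseudocount, filter, scaling, trend, tool, GC and length, replicate number and each library left out. Figures were drawn with matplotlib 3.10.9. The result of 1 further marker list is not reported here.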

Additional observations from a re-analysis of the deposited data

How the results depend on the processing

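Plxna1 kept its direction in all 22 alternatives and its call in 12, and Plxnc1 its direction in all 22 and its call in 7. Groups that do not overlap fix that direction. Counts below are higher and lower in Etv3-/-. The guidance genes numbered 1 and 1 and all genes 121 and 44. With a pseudocount of 5, 70 of all genes were lower. With no filter on low values 0 guidance genes were lower and 0 partner genes higher. With TMM scaling and with edgeR on recovered reads 0 guidance genes were lower. Without the mean trend in limma, 0 guidance genes and 0 partner genes were higher, 44 of all genes were higher, and the guidance gene lower was Ephb6 in place of Plxnc1. DESeq2 called 3 and 2 guidance genes, 5 and 6 partner genes and 636 and 533 of all genes. The GC and length correction gave 2 guidance genes higher, 2 and 1 partner genes and 250 and 122 of all genes. The cause of these changes was not tested.

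The replicate block gave 2 and 1 partner genes and 118 of all genes lower, and 1 and 1 guidance genes as without it. The block with the GC and length correction gave 1 partner gene and 82 of all genes lower. Deviations from the group means correlated at -0.0342 and 0.0386 in the 2 same-numbered pairs, which does not show that numbers pair libraries. Etv3-/- replicate 3 has no partner under the block.

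Leaving out each library gave 0 to 1 guidance genes higher and 0 lower, 0 partner genes higher, and 0 to 73 and 0 to 7 of all genes with limma. edgeR gave 0 guidance genes, 0 partner genes higher, and 0 to 7 and 0 to 3 of all genes. These fits have fewer libraries, and without an Etv3+/+ library the lone one is assumed to vary like the others. The edgeR omissions, and a fit without the 2 libraries that trended most with GC content (Etv3+/+ replicate 2, Spearman correlation across genes -0.427, and Etv3-/- replicate 3, 0.412), were chosen after seeing the data. Without both, 0 guidance genes passed in either direction, 0 partner genes were higher, and 6 and 1 of all genes passed. At an unadjusted p under 0.05 limma had 1885 genes without Etv3-/- replicate 1, where it called 0.

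Signs were followed for the guidance genes described in full and for some partner genes, not for all genes tested. Among these, log2 fold changes that changed sign belonged to genes without a call. Without Etv3-/- replicate 2 Nrp2 was at -0.000975. Without Etv3+/+ replicate 1, Nrp2 was at -0.127 and Plxnd1 at 0.0373 by limma, and Nrp2 at -0.133, Plxnd1 at 0.0276 and Efnb1 at 0.468 by edgeR. Without Etv3+/+ replicate 2, Robo3 was at -0.00341 by limma, and Itgb1 at 0.0372 and Rac1 at 0.0329 by edgeR. Without Etv3-/- replicate 3 Rac1 was at 0.00151 by edgeR. Without both GC-trend libraries Sema4d was at -0.0701, Itgb1 at 0.085, Rap1b at 0.0681 and Rac1 at 0.0995. With the GC and length correction Itgb1 was at 0.0387, and with the replicate block as well Itgb1 at 0.0475 and Rac1 at 0.0242. Over the limma fits that leave out libraries, the values farthest on the other side were 0.311 for Nrp2, -0.59 for Plxnd1, 0.911 for Robo3, 0.322 for Sema4d, -2.58 for Efnb1, -0.565 for Itgb1, -1.22 for Rap1b and -0.295 for Rac1. Over the edgeR fits they were 0.337 for Nrp2, -0.545 for Plxnd1, 0.938 for Robo3, 0.393 for Sema4d, -2.42 for Efnb1, -0.569 for Itgb1, -1.14 for Rap1b and -0.299 for Rac1. The stricter filter and a pseudocount of 0.5 kept every count within 1.5 times. Depth limits the low genes, where a single read is worth about 1 normalized count.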
